A study of Mus musculus with 6 samples.

Results

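The genes described are 10 tubulins, namely 3 alpha isotypes (Tuba1a, Tuba1b, Tuba1c), 6 beta isotypes (Tubb2a, Tubb2b, Tubb3, Tubb4b, Tubb5, Tubb6) and the gamma tubulin Tubg1, out of 24675 genes with a symbol on the arrays. They were taken by symbol from the deposited table, and these 10 were chosen by their measured levels and their ventral against dorsal differences. For that reason the values of the 10 isotypes in this comparison are given as a description, without a test. RNA was hybridised to Affymetrix Gene 2.0 ST arrays of the mouse, from C57Bl/6 embryos at embryonic day 10.5, and no mutation or treatment is named. The dorsal group (3 arrays) is tissue above the aorta, up to the notochord, and the ventral group (3 arrays) is tissue beneath the aorta. Both were cut by laser microdissection from 20 µm frozen sections of the same embryos, and 200 to 1000 pg of total RNA per sample was amplified before labelling. The labels number 3 biological replicates in each group without stating that equal numbers come from the same embryo, so a pair below means a dorsal and a ventral array of equal number.

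Microtubules are hollow polymers of alpha and beta tubulin dimers, and gamma tubulin, held in a ring complex at centrosomes and other organising centres, seeds their growth. Vertebrate alpha and beta tubulins are small families of highly similar proteins, called isotypes, which differ mostly in their acidic carboxy-terminal tails and in the tissues that use them. Cells also lower tubulin mRNA when free dimers accumulate, through recognition of the nascent tubulin chain by Ttc5. In embryos the family is known for the neuronal isotypes, above all Tubb3, and for broadly used isotypes such as Tubb5 and Tubb4b.

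Levels are RMA signals in log2 units, and differences are ventral minus dorsal on the same scale. Probe sets of different genes respond differently, so the level of an isotype is compared between arrays and never with the level of another isotype. As a guide to what an unexpressed gene gives, 1360 olfactory and vomeronasal receptor genes were used, a choice made after the data had been seen. Their 95th percentile, called the receptor limit here, lay between 4.62 and 4.96 on the 6 arrays, and 5.62% to 8.30% of all genes exceeded it. The median of the receptor genes lay between 2.52 and 2.67, so the limit is strict. A value below the limit does not show that a gene is silent. Of the 10 isotypes, 3 (Tuba1a, Tubb2b, Tubb4b) exceeded the limit on all 6 arrays, 2 (Tubb5 on 3 arrays and Tubg1 on 1) on some, and 5 (Tuba1b, Tuba1c, Tubb2a, Tubb3, Tubb6) on none. The gene table of GRCm38.p6 holds 7 tubulin pseudogenes beside 20 protein-coding tubulin genes, so probe sets of this family may share sequence with other copies, and each value below is uncertain to that extent. Ventral array 1 stood apart from the other 5 arrays in some cell type markers, seen after the data were examined. It had Sox2, a transcription factor of neural progenitors, at 7.61 against 2.20 to 2.73 elsewhere. Nes (5.29) and Map1b (6.11) were highest there, and Twist1 (4.20) and Hba-x (7.08) were lowest. Of the other neural progenitor markers, Pax6 and Dbx1 were also highest there. Sox1, Sox3, Fabp7, Hes5, Olig2, Nkx6-1 and Msi1 were highest on another array. The differences without ventral array 1 are given below for Tuba1b, Tubb2a, Tubb4b, Tubb5 and Tubb6. In bulk tissue, fewer cells of a type and less RNA per cell cannot be told apart.

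Across the family the direction of the difference varied from isotype to isotype. Tubb4b and Tubb5 were higher in ventral tissue in all 3 pairs and Tubb6 was lower in all 3, while the other 7 isotypes went both ways. The ventral values lay wholly above the dorsal values in 1 isotype (Tubb4b), a pattern found in 6.74% of all genes, and wholly below them in 1 (Tubb6), a pattern found in 12% of all genes. For pairs the corresponding shares were 13.3% of all genes higher in ventral tissue in each pair and 21.8% higher in dorsal tissue in each. The median difference of the 10 isotypes was -0.07, close to the median of -0.06 over all genes, and 4 of the 10 had a positive mean difference, against 42.0% of all genes. Of 24675 genes, limma called 0 (0%) at the adjusted threshold of 0.05, and 2522 (10.2%) had an unadjusted p under 0.05. Without the replicate block it called 1 gene (0.00405%), which is no tubulin.

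**Figure D1:**
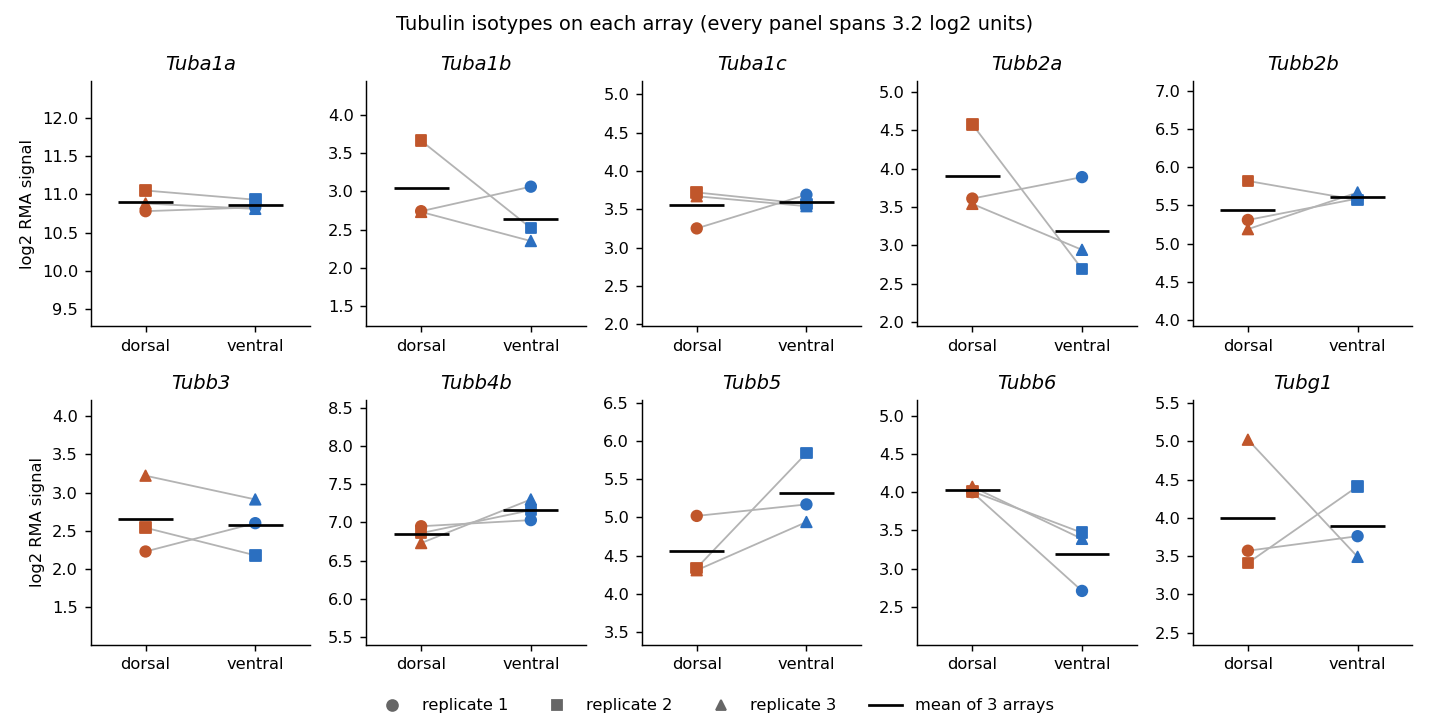
Log2 RMA signal of each of the 10 tubulin isotypes (1 panel each) on the 3 dorsal and 3 ventral arrays, with arrays of equal number joined by a line and the mean of 3 arrays as a bar. Tubb4b is higher on every ventral than on every dorsal array, Tubb6 is lower, and the groups of the other 8 isotypes overlap.

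Upstream sequences were available in RefSeq (GRCm38.p6) for 7 of the 10 isotypes and not for Tubb2b, Tubb6 and Tubg1. They were taken as the 250 bases before the transcription start. They were searched for 3 short elements on both strands. These were CCAAT, the box bound by the factor NF-Y, then GGGCGG, the GC box bound by Sp factors, and lastly TATAAA, the core of the element that positions the start of transcription, and no matches overlapped in the sequences printed. Shown are Tubb4b and Tubb5, which were higher in ventral tissue in all 3 pairs, Tuba1a, whose values had the smallest range over the 6 arrays, and Tubb2a, whose values had the largest. Matches are in capitals, and each sequence runs 5′ to 3′ on the strand of its gene, which is the minus strand for all 4 genes. The positions are chr2:25224703-25224952 for Tubb4b, chr17:35838302-35838551 for Tubb5, chr15:98953502-98953751 for Tuba1a and chr13:34078009-34078258 for Tubb2a.
Tubb4b: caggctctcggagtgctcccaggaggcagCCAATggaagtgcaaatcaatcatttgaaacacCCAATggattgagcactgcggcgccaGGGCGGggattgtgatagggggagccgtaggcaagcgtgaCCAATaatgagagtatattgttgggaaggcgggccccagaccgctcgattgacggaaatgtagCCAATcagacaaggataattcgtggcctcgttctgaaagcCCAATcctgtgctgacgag
Tubb5: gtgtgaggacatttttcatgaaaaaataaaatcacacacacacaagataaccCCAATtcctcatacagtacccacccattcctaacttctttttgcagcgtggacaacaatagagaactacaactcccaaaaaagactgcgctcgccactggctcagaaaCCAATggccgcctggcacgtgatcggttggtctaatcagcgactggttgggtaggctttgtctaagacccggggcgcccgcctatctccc
Tuba1a: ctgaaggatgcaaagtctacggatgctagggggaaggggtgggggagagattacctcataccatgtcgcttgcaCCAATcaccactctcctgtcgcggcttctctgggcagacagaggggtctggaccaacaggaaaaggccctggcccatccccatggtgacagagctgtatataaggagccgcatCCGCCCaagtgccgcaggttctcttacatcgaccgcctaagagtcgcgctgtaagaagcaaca
Tubb2a: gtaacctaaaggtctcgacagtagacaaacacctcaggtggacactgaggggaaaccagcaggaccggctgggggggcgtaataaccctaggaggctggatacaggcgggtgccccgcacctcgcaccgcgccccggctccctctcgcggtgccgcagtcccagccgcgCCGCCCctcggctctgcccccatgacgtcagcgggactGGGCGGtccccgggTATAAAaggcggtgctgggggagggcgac

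Tubb4b had 5 CCAAT matches in this window and Tubb5 had 2. Among 32841 upstream windows of the same length, 33.9% held at least 1 CCAAT match, 10.1% at least 2, and 0.21% at least 5. Tuba1a had 1 match, as did Tuba1c and Tubb3, while Tuba1b and Tubb2a had 0. Among tubulin genes outside the 10 isotypes, Tuba3a had 3 matches and Tuba3b had 2, with ventral minus dorsal differences of -0.31 and -0.77. Tube1 had 1, and Tuba4a, Tuba8, Tubal3, Tubb1, Tubb4a, Tubd1 and Tubg2 had 0. GGGCGG was matched once in Tubb4b and Tuba1a and 2 times in Tuba1b, Tubb2a and Tubb3. Of all windows 32.7% held at least 1 match and 16.7% at least 2. The windows of Tuba1b, Tubb2a and Tubb3 were 75.6%, 68.4% and 68% G or C, against a median of 52.4% over all windows. Tubb2a alone among the 7 held TATAAA, starting at -29, a motif found in 12.4% of windows. These matches describe letters in the window and carry no information on binding in the tissue.

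**Figure D2:**
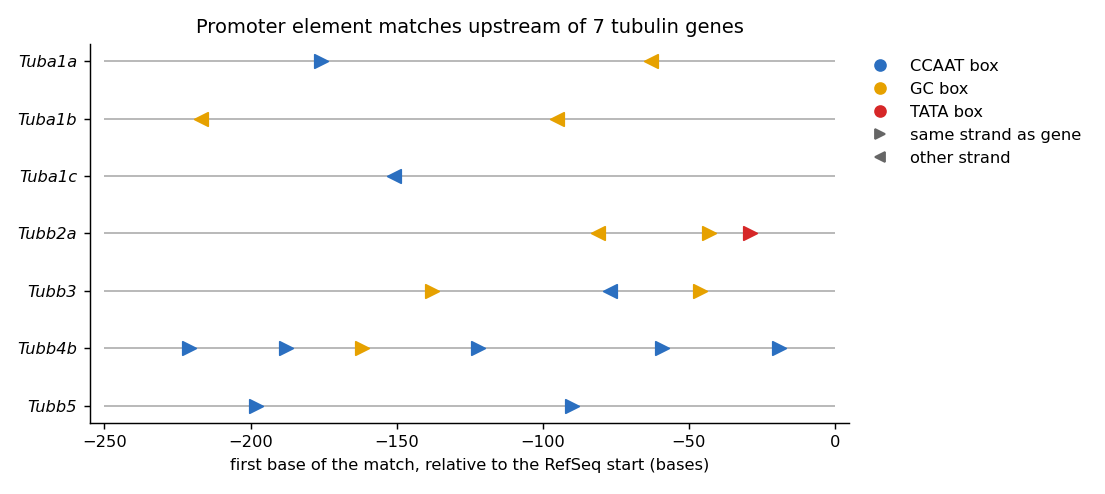
Position of CCAAT, GC box and TATA box matches in the 250 bases before the RefSeq start (base 0) of 7 tubulin genes, with the arrow giving the strand of the match. Tubb4b holds 5 CCAAT matches from -221 to -19, Tubb5 holds 2, and Tubb2a holds the only TATA match, at -29.

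Tuba1a is the alpha isotype of migrating and differentiating neurons, and it is also made in many embryonic cells. Its signal was 10.78, 11.05 and 10.88 on dorsal arrays 1, 2 and 3 and 10.83, 10.93 and 10.81 on the ventral arrays. The groups overlapped within a range of 0.27 over the 6 arrays, the smallest range among the 10 isotypes. The mean was 10.90 ± 0.14 dorsally and 10.86 ± 0.07 ventrally (SD, n = 3 arrays per group), a difference of -0.05 ± 0.05 (SE over 3 pairs). All 6 values were far above the receptor limit. The difference was 0.03 when dorsal array 2, the highest of the 6, was left out.

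Tuba1b, a broadly expressed alpha isotype, lies next to Tuba1a in the gene table with no gene between them. Its signal was 2.74, 3.66 and 2.73 in dorsal and 3.06, 2.52 and 2.35 in ventral tissue, below the receptor limit on all 6 arrays and above the array median on 1. The single high value was that of dorsal array 2, and the groups overlapped. The mean difference was -0.40 ± 0.42 (SE), with pair differences of 0.31, -1.14 and -0.38. It was -0.03 without the arrays numbered 2, -0.76 without those numbered 1 and -0.61 without ventral array 1 alone. At signals this low the array does not show whether the transcript differs.

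Tuba1c, the third alpha isotype of the same gene cluster, had a signal of 3.25, 3.72 and 3.67 in dorsal and 3.69, 3.57 and 3.54 in ventral tissue. Dorsal array 1 was the low value, and the other 5 arrays lay close together. The means were 3.55 ± 0.26 and 3.60 ± 0.08, a difference of 0.05 ± 0.20 (SE), which was -0.14 without the arrays numbered 1. All 6 values were above the array medians and below the receptor limit.

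Tubb2a and Tubb2b are beta isotypes of nearly identical sequence, enriched in the nervous system, whose genes are neighbours with 1 noncoding gene between them. Tubb2a had a signal of 3.61, 4.58 and 3.54 in dorsal and 3.89, 2.69 and 2.94 in ventral tissue. Dorsal array 2 was high and ventral arrays 2 and 3 were low, while ventral array 1 exceeded dorsal arrays 1 and 3, so the groups overlapped. The means were 3.91 ± 0.58 and 3.18 ± 0.63, and the pair differences of 0.29, -1.89 and -0.60 average -0.73 ± 0.63 (SE). This difference was -0.16 without the arrays numbered 2, -1.24 without those numbered 1 and -1.09 without ventral array 1 alone. Tubb2b had a signal of 5.31, 5.82 and 5.19 in dorsal and 5.59, 5.57 and 5.67 in ventral tissue. The ventral values were nearly equal and lay inside the dorsal range, with means of 5.44 ± 0.33 and 5.61 ± 0.06. The difference was 0.17 ± 0.22 (SE), and the pairs gave 0.28, -0.25 and 0.48. It was 0.38 without the arrays numbered 2, 0.11 without those numbered 1 and 0.01 without those numbered 3. Dorsal array 2 was again the highest of the 6 arrays. It was so for 5 of the 10 isotypes (Tuba1a, Tuba1b, Tuba1c, Tubb2a, Tubb2b), against 23.1% of all genes, a count made after the values were seen.

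Tubb3, the beta isotype used to mark neurons, had a signal of 2.23, 2.54 and 3.22 in dorsal and 2.60, 2.18 and 2.91 in ventral tissue. No value reached the median of its array, and the groups overlapped. The difference of -0.09 ± 0.24 (SE) had a positive sign in 4 of 13 alternatives, for instance 0.04 without the arrays numbered 2. Beside it, the 14 measured neuron markers had a median difference of 0.12, with 9 positive, against -0.06 and 42.0% positive over all genes. The summed log2 signal of the 14 markers ran from 46.3 to 47.6 on the dorsal and from 45.9 to 48.2 on the ventral arrays. Of these markers 12 were below the receptor limit on every array and 0 exceeded it on all 6, and no marker has a value of 0 on this scale. The neuron marker with the smallest p was Nefm, a neurofilament subunit, at 3.50 ± 0.50 in dorsal against 2.73 ± 0.05 in ventral tissue (limma adjusted p = 0.460). The part of neurons in the tubulin values was not tested.

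Tubb4b is a broadly expressed beta isotype that is also used in cilia. Its signal was 6.95, 6.86 and 6.73 in dorsal and 7.03, 7.16 and 7.30 in ventral tissue. Every ventral array was above every dorsal array, and the nearest values of the groups were those of the arrays numbered 1. The means were 6.85 ± 0.11 and 7.16 ± 0.14, a difference of 0.31 ± 0.14 (SE), or 1.24-fold. The pair differences were 0.08, 0.29 and 0.56, and the mean difference lay between 0.18, without the arrays numbered 3, and 0.43, without those numbered 1, and between 0.21 and 0.35 under other scalings.

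Tubb5 is the main beta tubulin of dividing cells and neural progenitors. Its signal was 5.02, 4.34 and 4.31 in dorsal and 5.17, 5.84 and 4.94 in ventral tissue. Dorsal array 1 exceeded ventral array 3, so the groups overlapped, although each ventral array was above the dorsal array of its number. The means were 4.56 ± 0.40 and 5.32 ± 0.47, and the pair differences of 0.15, 1.5 and 0.63 average 0.76 ± 0.39 (SE), or 1.69-fold. The difference was 0.39 without the arrays numbered 2, 0.50 without ventral array 2 alone and 1.06 without the arrays numbered 1. Only 3 of the 6 Tubb5 values were above the receptor limit.

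Markers of dividing cells and of neural progenitors were set beside Tubb4b and Tubb5. The 13 measured markers of division had a median difference of 0.38, with 11 positive, against -0.06 and 42.0% positive over all genes. The summed log2 signal of the 13 markers was 54.9 to 61.8 on the dorsal and 59.8 to 63.8 on the ventral arrays. Of them 3 exceeded the receptor limit on all 6 arrays and 6 on none. Cenpe, a kinetochore motor, had the smallest p of this list, with 4.34 ± 0.12 in dorsal and 4.80 ± 0.27 in ventral tissue (limma adjusted p = 0.480). The 11 neural progenitor markers had a median difference of 0.06, and their summed log2 signal was 38.4 to 40.0 on the dorsal and 39.3 to 48.4 on the ventral arrays, with 8 below the receptor limit on every array. The 48.4 was that of ventral array 1, where Sox2 was at 7.61 against 2.20 to 2.73 elsewhere. Ventral arrays 2 and 3 were at 39.3 and 40.8. Without ventral array 1 the difference of Tubb4b went from 0.31 to 0.38 and that of Tubb5 from 0.76 to 0.83. Fabp7, the fatty acid binding protein of radial glia, was at 3.74 ± 0.12 and 5.46 ± 0.32 (limma adjusted p = 0.239). The part of dividing cells and of neural progenitors in the Tubb4b and Tubb5 differences was not tested.

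Tubb6 is a divergent beta isotype expressed widely outside the nervous system and known to make microtubule networks less stable when abundant. Its signal was 4.0, 4.01 and 4.07 in dorsal and 2.71, 3.47 and 3.39 in ventral tissue. The dorsal values were nearly equal and all above the ventral values, among which ventral array 1 was the lowest. The means were 4.03 ± 0.04 and 3.19 ± 0.41, a difference of -0.84 ± 0.23 (SE), corresponding to a 1.79-fold higher dorsal signal. The pairs gave -1.29, -0.54 and -0.69. The difference ranged from -0.99 to -0.60 when arrays were left out and from -0.84 to -0.79 under other scalings. All 6 values were below the receptor limit, so the fold is that of the signal and not of a transcript shown to be above background.

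Beside Tubb6, 8 of 10 markers of sclerotome and other mesenchyme had a negative difference, with a median of -0.24. Over all genes 42.0% of differences were positive and the median was -0.06. The summed log2 signal of the 10 markers was 41.1 to 43.1 on the dorsal and 38.1 to 40.2 on the ventral arrays. These ranges do not overlap, but the gap rests largely on Twist1, whose difference of -1.40 was the largest of the list. Col1a1 alone exceeded the receptor limit on all 6 arrays, and 8 of the 10 exceeded it on none. Twist1, a mesenchymal transcription factor, had the smallest p of the list, at 6.52 ± 0.13 and 5.12 ± 0.81 (limma adjusted p = 0.435). Without ventral array 1 the difference of Twist1 went from -1.40 to -0.93 (-0.89 without both arrays numbered 1) and that of Tubb6 from -0.84 to -0.60. The part of mesenchyme in the Tubb6 difference was not tested.

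Tubg1, the gamma tubulin of centrosomes, had a signal of 3.57, 3.41 and 5.02 in dorsal and 3.76, 4.41 and 3.49 in ventral tissue. Dorsal array 3 was the only value above the receptor limit, and the groups overlapped. The pair differences of 0.20, 1.00 and -1.53 average -0.11 ± 0.75 (SE), and this average became 0.60 without the arrays numbered 3 and -0.67 without those numbered 2. The spread between pairs was larger than the mean difference, whose direction depends on the arrays kept.

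**Figure D3:**
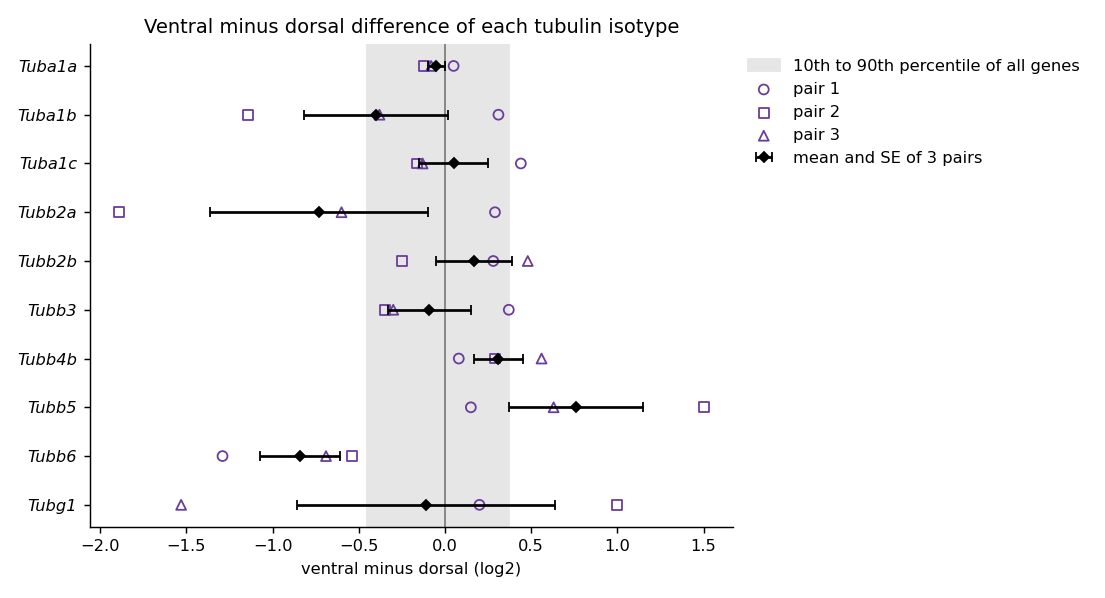
Ventral minus dorsal difference (log2) of each isotype in the 3 pairs of equal number (open symbols) with the mean and SE of the pairs (diamonds), over a grey band from the 10th to the 90th percentile of all genes, -0.45 to 0.37. Means of Tubb5, Tubb6 and Tubb2a lie outside the band, and the pairs of Tubb2a and Tubg1 are the most widely spread.

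The pairs did not move alike. In pair 1, 9 of the 10 isotypes were higher in ventral tissue, the exception being Tubb6, with a median difference of 0.24. Pair 1 holds ventral array 1, the array with high Sox2 and Nes, and whether its marker levels are linked to the pair 1 values was not tested. The pair also holds dorsal array 1, the lowest of the 6 arrays for Tuba1a and Tuba1c, and its part was not tested either. In pairs 2 and 3 the count was 3 of 10, with medians of -0.20 and -0.22. Over all genes 45.8%, 41.9% and 46.9% were higher in ventral tissue in pairs 1, 2 and 3. The spread was larger among dorsal arrays for 6 of the 10 isotypes, and over all genes the median SD was 0.26 in dorsal and 0.18 in ventral tissue.

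**Figure D4:**
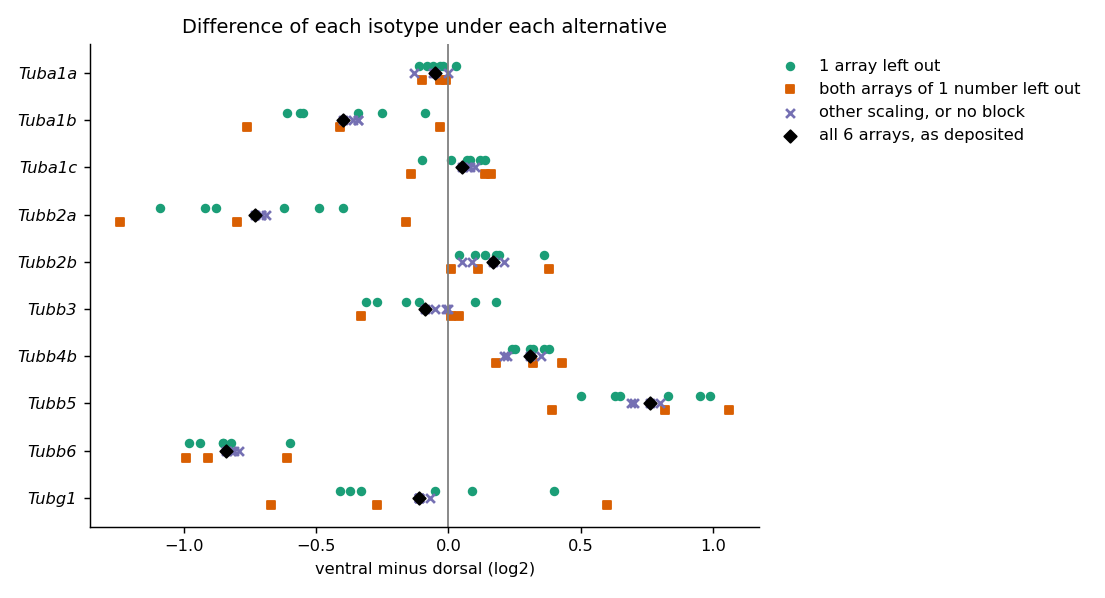
Ventral minus dorsal difference (log2) of each isotype with all 6 arrays as deposited (black), with 1 array or both arrays of a number left out (green, orange) and with other scalings or without the block (purple). Tubb4b and Tubb5 stay positive and Tubb6 stays negative in all 13 alternatives, while Tubg1 runs from -0.67 to 0.60. The groups of Tubb4b and Tubb6 do not overlap, so leaving out arrays cannot turn their sign.

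The other 10 tubulin genes of the arrays were all dim, with 9 below the receptor limit on every array. They comprise the alpha genes Tuba3a, Tuba3b, Tuba4a, Tuba8 and Tubal3, the beta genes Tubb1 of platelets and Tubb4a of the nervous system, the delta and epsilon tubulins of centrioles Tubd1 and Tube1, and the second gamma tubulin, Tubg2. None was called by limma, and 0 and 2 had an unadjusted p under 0.05 in the ventral and dorsal direction, against 4.32% and 5.9% of all genes. Their median difference was -0.18, which was -0.02 without the arrays numbered 2, -0.03 without dorsal array 2, -0.08 without dorsal array 3 and -0.29 without dorsal array 1. Tubg2, which adjoins Tubg1 in the gene table, had a signal of 3.37, 3.14 and 4.11 in dorsal and 2.74, 2.79 and 3.15 in ventral tissue, lower in all 3 ventral arrays of equal number (-0.65 ± 0.19, limma SE, adjusted p = 0.442), and its difference was -0.36 without dorsal array 3. Tuba3b was at 3.65 ± 0.52 and 2.88 ± 0.58, with a difference of -0.77 ± 0.24 and an adjusted p of 0.444 in limma; it was -0.50 without dorsal array 3 and -0.48 without ventral array 1. Tuba8 differed by -0.64, Tuba3a by -0.31, Tubb4a by -0.20 and Tuba4a by -0.17. Tuba8 was -0.11 without dorsal array 2 and -0.27 without the arrays numbered 2, and Tuba4a was -0.03 without the arrays numbered 1, -0.05 without ventral array 1, -0.35 without the arrays numbered 3 and -0.32 without ventral array 3. Tubal3 differed by 0.27, Tube1 by 0.13, Tubd1 by 0.11 and Tubb1 by 0.07, and the limma adjusted p of all 10 genes lay between 0.442 and 0.934. Tubal3 was 0.07 without ventral array 3, 0.09 without the arrays numbered 3 and 0.49 without those numbered 1.

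Genes that fold tubulin, nucleate microtubules, bind, modify or sever them, or move along them were taken by function as 6 further lists. With the other tubulins they make 136 measured genes, of which limma called 0 with the block and 0 without it. An unadjusted p under 0.05 was found for 18 genes, 13.2% of the 136 against 10.2% of all genes, with 9 higher on each side. This count was 10 without the arrays numbered 1 and 4 without those numbered 3, and it was 12 without dorsal array 3, ventral array 1 or ventral array 2. The genes named for each list are the 3 with the smallest p, and their adjusted p lay between 0.435 and 0.580 in limma.

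The folding list holds the tubulin cofactors, the prefoldin subunits that hand nascent tubulin to the chaperonin, and the autoregulation factor Ttc5. It had a median difference of -0.12 over 14 genes and 0 genes at an unadjusted p under 0.05 in limma. Pfdn6, a prefoldin subunit, was at 5.82 ± 1.18 in dorsal against 4.85 ± 0.23 in ventral tissue, lower in all 3 pairs with overlapping groups. Dorsal array 1 was high (7.07), and the difference went from -0.97 to -0.34 without it and to -1.50 without dorsal array 2. Vbp1, another prefoldin subunit, differed by -0.44 ± 0.24 (limma SE) and the cofactor Tbcc by -0.43 ± 0.25. Vbp1 ranged from -0.90 (without dorsal array 2) to -0.19 (without the arrays numbered 3), and was -0.70 without the arrays numbered 2, -0.21 without dorsal array 1 or 3 and -0.24 without ventral array 2. Tbcc was -0.70 without the arrays numbered 2, -0.15 without those numbered 3 and -0.24 without dorsal array 3. The list median was -0.07 without the arrays numbered 3 or ventral array 2, and 0.02 without dorsal array 1. The list of gamma ring complex and augmin, the complex that branches microtubules in the spindle, had a median of -0.01 over 20 genes and likewise 0 genes at that p. Mzt1, a small ring complex protein, differed by 0.39 ± 0.19, the augmin subunit Haus1 by -0.37 ± 0.18 and the ring complex subunit Tubgcp5 by -0.39 ± 0.20. Without dorsal array 1 Haus1 was at -0.17 and Tubgcp5 at -0.11, and without ventral array 3 they were at -0.19 and -0.25. Tubgcp5 was -0.21 without the arrays numbered 1 and -0.60 without dorsal array 3, and Mzt1 was 0.25 without the arrays numbered 3. In this list 19 of 20 genes were below the receptor limit on every array.

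Microtubule-associated and dynamics genes had a median difference of -0.09 over 34 genes, with 3 at an unadjusted p under 0.05 in each direction. Of all genes, 4.32% had such a limma p with ventral higher and 5.9% with dorsal higher. Map1b, a microtubule-associated protein of growing axons, was at 4.16 ± 0.17 in dorsal against 5.41 ± 0.64 in ventral tissue, a difference of 1.25 ± 0.30 (limma SE, adjusted p = 0.435). The groups did not overlap, and 2 of its 6 values exceeded the receptor limit. The difference was 0.82 without the arrays numbered 1. Map7d2, which recruits kinesin to microtubules, was at 3.11 ± 0.25 and 2.45 ± 0.06, and Clasp2, which stabilises plus ends, was at 2.96 ± 0.32 and 3.51 ± 0.17. In both genes the groups did not overlap, and all values were below the receptor limit. Groups did not overlap in 6.74% of all genes with ventral higher and in 12% with dorsal higher.

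Tubulin-modifying enzymes had a median of -0.05 over 25 measured genes, with 2 higher in ventral and 1 higher in dorsal tissue at an unadjusted p under 0.05. The shares of all genes were 4.32% and 5.9%. Ttll1, a polyglutamylase of tubulin tails, was at 2.65 ± 0.05 in dorsal against 3.13 ± 0.07 in ventral tissue, and Ttll12, of the same family, at 4.29 ± 0.40 and 4.92 ± 0.23, with a difference of 0.63 that was 0.38 without the arrays numbered 2. The deacetylase Hdac6 was at 4.51 ± 0.18 and 4.01 ± 0.14. Severing and depolymerising genes had a median of -0.10 over 13 measured genes, with 1 at that p in each direction. Katnal1, a katanin-like severing enzyme, differed by -0.55 ± 0.17, the depolymerising kinesin Kif2a by 0.62 ± 0.21 and its mitotic relative Kif2c by -0.44 ± 0.21 (limma SE). Kif2c was -0.22 without the arrays numbered 3 and -0.24 without dorsal array 3.

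Transport kinesins had a median of 0.05 over 20 measured genes, with 3 higher in ventral and 2 higher in dorsal tissue at an unadjusted p under 0.05. The shares of all genes were 4.32% and 5.9%. Kif5a, a heavy chain of conventional kinesin in neurons, was at 2.73 ± 0.23 in dorsal against 3.40 ± 0.20 in ventral tissue. Kif5c, a further neuronal heavy chain, was at 2.55 ± 0.37 and 3.31 ± 0.85, and its unadjusted p in limma became 0.106 from 0.0174 without the block. Ventral array 2 was high (4.27), and the difference went from 0.76 to 0.28 without it and to 0.49 without the arrays numbered 2. Kif3a, a motor subunit of intraflagellar transport, was at 3.42 ± 0.16 and 2.88 ± 0.11. All 20 genes of this list were below the receptor limit on every array.

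**Figure D5:**
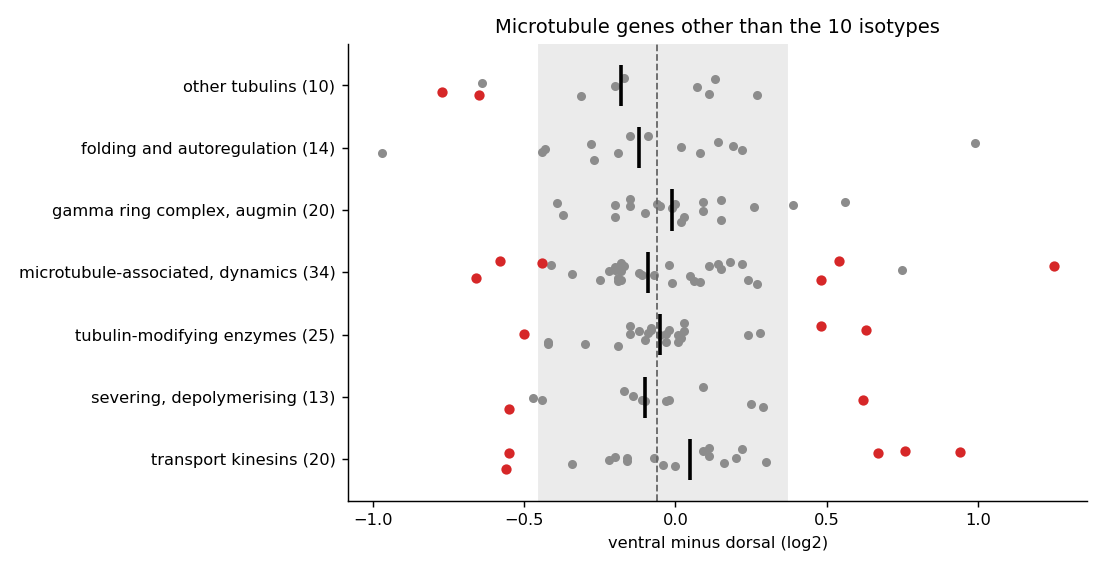
Ventral minus dorsal difference (log2) of every measured gene in 7 microtubule lists (points, with list sizes in brackets), the list median (black bar), the median of all genes at -0.06 (dashed) and their 10th to 90th percentile (grey). Red points are the 18 genes at an unadjusted limma p under 0.05, spread over 5 of the lists and both directions.

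The remaining marker lists check what the cut tissue held. Over all genes 42.0% of differences were positive and the median was -0.06. Endothelial markers were below the receptor limit on every array in 10 of 10 genes, with 6 positive differences, a median of 0.05 and summed log2 signals of 32.0 to 33.2 in dorsal and 31.9 to 33.5 in ventral tissue. Sox17, named for the smallest p of that list, went against the median with -0.17, which was -0.03 without ventral array 1. Of 7 measured erythroid markers 4 were negative, with a median of -0.02 and sums of 39.7 to 46.2 and 35.8 to 48.2. Klf1 had the smallest p, with 0.32 (0.14 without the arrays numbered 3 and 0.55 without dorsal array 1), while the bright globins Hbb-y and Hba-x had -0.37 and -0.29 and Hbb-bh1 had 0.38, these 3 named after their values were seen. Of 9 epithelial markers 6 were negative, with a median of -0.19 and sums of 34.2 to 35.6 and 33.6 to 36.2, and Cldn6, with the smallest p, went the other way with 0.55, which was 0.33 without ventral array 3. The mean signal of the 10 tubulins per array ran from 4.75 to 5.0 in dorsal and from 4.73 to 4.83 in ventral tissue. Dorsal arrays 2 and 3 were above every ventral array and dorsal array 1 was within the ventral range. The place of dorsal array 3 rests on Tubg1, at 5.02 there against 3.41 to 4.41 on the other arrays.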

How the data were processed

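The deposited values are log2 RMA signals, 1 per probe set and array, made by the authors with Affymetrix Expression Console and RMA, per the submitters' processing notes; the versions, the genome build and the probe set definition are not given in the sources used here. RMA corrects background, equalises the distributions of probe signals and summarises probes, so values near the floor are compressed. The medians of the deposited values still ran from 3.2 to 3.28 over the arrays. The log base was inferred from the range of the values, 0.97 to 12.9. Of 25429 probe sets, 24675 had 1 gene symbol and 754 had none.

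The region comparison used limma 3.58.1 (R 4.3.3; lmFit and eBayes, two-sided, Benjamini-Hochberg over 24675 genes, threshold 0.05) with the replicate number as a block, because both regions came from the same embryos, per the labels' protocols. No dim genes were filtered. An exact permutation test of 3 against 3 arrays cannot go below 0.1. The p-values reflect only the spread among these 6 samples, whose number limits the precision. The procedure was tested on simulated data with planted differences larger than any isotype difference here. It does not show what would be found at the sizes reported. The tubulins and the 14 gene lists were chosen with earlier results of these data known. Named genes are all tubulins, the 3 members with the smallest p in each other microtubule list and 1 in each marker list. Protein sequences were not used here.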

Additional observations from a re-analysis of the deposited data

How the results depend on the processing

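The 10 isotypes have 13 alternatives each: the fit without the replicate block, cyclic loess, median centring, quantile normalization, and fits without both arrays of a number or without a single array. All 130 values lay within 1 SD of the pair differences of the reported value, a wide margin for Tubb2a and Tubg1. For some alternatives this outcome was fixed in advance. Leaving out 1 of 3 pairs cannot move their mean by 1 SD, and removing the block leaves it unchanged. The sign was kept throughout by 6 isotypes (Tuba1b, Tubb2a, Tubb2b, Tubb4b, Tubb5, Tubb6) and not by Tuba1a, Tuba1c, Tubb3 and Tubg1. Leaving out arrays could not turn the sign of Tubb4b and Tubb6, whose groups do not overlap. Nor could leaving out both arrays of a number for Tubb5, which was higher in ventral tissue in every pair. The median of the 10 isotypes was -0.07 and ranged from -0.21 to 0.08 when arrays were left out. The replicate block does not alter a mean difference; without the block limma called 1 gene (Hspb11) against 0, and no tubulin or microtubule gene. Across genes, the deviations of same-numbered arrays correlated at 0.039, -0.014 and 0.057, so the numbers are not shown to pair the samples. Leaving out arrays gave 0 to 5 calls over all genes and 0 among the microtubule genes; 5 calls came without the arrays numbered 1. Array weights, a trended robust prior and both filters on dim genes gave 0 calls. Of the genes at an unadjusted p under 0.05, 42.2% were higher in ventral tissue, which became 52.4% after cyclic loess, 53.5% after median centring and 52.2% after quantile normalization, and the median over all genes moved from -0.06 to between -0.02 and 0.00. Signs turned for 3 dim tubulins when arrays were left out; the cause was not tested. Tubb1 ranged from -0.15 to 0.42 (negative without the arrays numbered 1 or 3, dorsal array 1 or ventral array 3), Tuba3a from -0.62 to 0.09 (positive without the arrays numbered 2 or dorsal array 2) and Tubb4a from -0.60 to 0.11 (positive without the arrays numbered 3 or dorsal array 3). The 18 microtubule genes at an unadjusted p under 0.05 became 4 to 14 without both arrays of a number and 12 to 20 without a single array. With genes below the median signal left out, 5 of the microtubule genes had an unadjusted p under 0.05 against 18. Some of the 18 were removed by the filter. Others were kept but had a larger p, and the cause of that was not tested. Signal over background limits 7 of the 10 isotypes, since 5 exceeded the receptor limit on no array and Tubb5 and Tubg1 on some.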
